A study of Mus musculus with 2 samples.

Results

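The ERK pathway feedback genes are genes that ERK signaling switches on and whose products act back on, or carry forward, the same pathway. All 10 genes of the set were looked up by symbol among the 19294 genes of the count table, and all 10 were listed: Dusp4, Dusp5, Dusp6, Spry1, Spry2, Spry4, Spred1, Spred2, Etv4 and Etv5. Each had at least 10 counts in both libraries. They were compared between mouse intestinal organoids (mIOs) left untreated and mIOs treated for 4 days with dextran sulfate sodium (DSS), a polymer widely used to damage the gut lining and set off colitis in mice.

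Both cultures came from jejunal crypts of mice carrying the allele Lgr5-EGFP-IRES-creERT2, in which the Lgr5 promoter drives EGFP and a tamoxifen-inducible Cre, and both grew in Matrigel with EGF, Noggin and R-spondin. The age of the mice, their number and the DSS concentration used for sequencing are not given in the sources used here. mRNA-seq was made from 1 control library, with 65493032 counts, and 1 DSS library, with 59746968 counts. With 1 library per condition there is no replicate check, no test was made, and every interval covers counting error only. The labels name intestinal stem cells as the cell type, but all 10 listed markers of enterocytes, all 8 of goblet cells and all 8 of enteroendocrine cells were counted in both libraries beside those of stem cells. In such bulk RNA, fewer cells of a type and less RNA per cell cannot be told apart.

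EGF, which is part of the culture medium, binds its receptor and activates RAS, the RAF kinases, MEK and finally the kinase ERK. Active ERK induces its own inhibitors, which act at different levels. DUSP phosphatases remove the phosphates from ERK itself, whereas Sprouty and SPRED proteins act further up, on the route from the receptor to RAS and RAF. ETV4 and ETV5 are transcription factors of the PEA3 group of ETS proteins and are widely read as outputs of the pathway. In the intestinal crypt, EGF and ERK signaling is known to drive the division of stem and progenitor cells.

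Promoters of 7 feedback genes were searched, and those of Dusp4, Etv4 and Spry4 are not reported here. Of these 7, promoter sequences are given for the 2 genes with the highest and the 2 with the lowest ratio of DSS over control. They are shown so that promoters of genes with opposite directions can be set side by side. Each is the 250 bases before the annotated start on GRCm38.p6, written 5′ to 3′ along the gene. The Dusp5 sequence lies at chr19:53528895-53529144, plus strand, Dusp6 at chr10:99262981-99263230, plus strand, Spry1 at chr3:37639697-37639946, plus strand and the upstream start of Etv5 at chr16:22439571-22439820, minus strand. Capitals mark matches to the motifs searched on both strands, which were the CArG box bound by serum response factor, TGACGTCA and the shorter TGACGT within it (cAMP response element), TGANTCA (AP-1), CCGGAA and AGGAAG (ETS), CACGTG (E-box) and CTTTGAT (TCF/LEF).
Dusp5: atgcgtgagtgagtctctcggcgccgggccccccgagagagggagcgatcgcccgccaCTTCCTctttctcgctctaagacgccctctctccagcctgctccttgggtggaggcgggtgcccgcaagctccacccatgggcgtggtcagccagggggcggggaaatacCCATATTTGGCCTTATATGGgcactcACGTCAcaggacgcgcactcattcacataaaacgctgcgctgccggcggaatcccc
Dusp6: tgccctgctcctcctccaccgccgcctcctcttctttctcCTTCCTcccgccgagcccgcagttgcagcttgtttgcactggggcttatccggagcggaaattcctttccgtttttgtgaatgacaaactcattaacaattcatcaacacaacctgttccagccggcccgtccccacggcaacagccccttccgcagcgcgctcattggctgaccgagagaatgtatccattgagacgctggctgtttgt
Spry1: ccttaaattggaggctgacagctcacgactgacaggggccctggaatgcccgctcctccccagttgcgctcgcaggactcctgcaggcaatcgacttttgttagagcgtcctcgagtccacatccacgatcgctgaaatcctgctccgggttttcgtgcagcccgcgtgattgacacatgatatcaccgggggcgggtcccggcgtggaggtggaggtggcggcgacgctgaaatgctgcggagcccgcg
Etv5: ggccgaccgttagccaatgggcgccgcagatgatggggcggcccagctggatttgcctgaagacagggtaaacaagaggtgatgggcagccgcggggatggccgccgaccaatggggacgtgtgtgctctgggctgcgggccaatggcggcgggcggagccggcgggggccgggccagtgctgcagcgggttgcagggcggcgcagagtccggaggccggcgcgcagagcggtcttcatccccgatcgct

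The Dusp5 promoter held 2 CArG boxes side by side, CCATATTTGG from base -82 to -73 and CCTTATATGG from base -72 to -63, counted from the start. Within the same window of 250 bases before the start, a CArG box was found in 1.47% of the 32851 promoters of the table, and 2 or more in 6 promoters (0.0183%). Of the 7 feedback genes with a sequence, Dusp5 was the only one with this motif. Dusp5 and Spred2 also held TGACGT, which 6.47% of all promoters hold. AGGAAG was found in Dusp5, Dusp6 and Spred2 and in 29.5% of all promoters. The shares for the motifs not found in these 7 genes were 1.55% for TGACGTCA, 6.75% for TGANTCA, 12.0% for CCGGAA, 6.02% for CACGTG and 3.21% for CTTTGAT. In these windows, no match to any of the motifs was found for Spry1, Spry2, Spred1 or Etv5. The share of all promoters without any match was not computed, so the lack of a match is not read as a trait of these genes. A match is a run of letters, and binding was not measured.

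The feedback genes differed in both directions between the libraries. Both ETS factors, Etv4 and Etv5, were lower in the DSS library, as were Spry1 and Spred1, while the phosphatase genes Dusp5 and Dusp6 were higher. On the log2 scale of TMM-scaled counts, DSS over control, the 10 genes ran from -2.93 to 2.10 with a median of -0.71, beside a median of -0.06 over all 17235 genes that reached 10 counts in the control or the DSS library. With a line drawn at a 2-fold difference (a log2 ratio of 1 or -1), 4 of the 10 genes were at -1 or lower, a size that 20.2% of all genes reached, and 2 were at 1 or higher, which 19.3% of all genes reached. The remaining 4 genes lay between the lines. At a log2 ratio of -2 or lower were 2 of the 10 genes and 6.54% of all genes, and at 2 or higher were 1 of the 10 genes and 7.87% of all genes. Of all genes past either 2-fold line, 48.9% were higher with DSS, and 37.1% when libraries were scaled by their total counts alone. The counting interval of Spry4 held 0. Those of the other feedback genes did not, but such intervals are narrow at this depth, and the share of all genes was not computed. Levels are given as CPM, the TMM-scaled counts relative to library size. Summed over all 10 genes, the level was 301 CPM in the control library and 291 CPM with DSS.

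Markers of several cell types differed between the libraries as well. All 10 stem cell markers were at -1 or lower, summing to 1157 CPM in the control against 189 CPM with DSS, and Lgr5 was at -3.78. Of 10 markers of cycling cells, 9 were at -1 or lower, with sums of 1699 and 270.2 CPM, and Mki67 was at -4.02. Past the line in the other direction were all 10 enterocyte markers, with sums of 3225 and 25462 CPM and Vil1 at 1.25, all 8 markers of goblet cells, with sums of 864 and 11704 CPM, and all 8 of enteroendocrine cells, with sums of 854 and 4376 CPM. Paneth cell markers summed to 864 and 322 CPM, with 6 of 8 at -1 or lower, and the 6 listed tuft cell markers to 9.38 and 4.59 CPM, with 4 at -1 or lower. The listed markers of cells outside the epithelium summed to 7.45 and 13.6 CPM (immune), 1.03 and 3.16 CPM (endothelial) and 6.62 and 35.9 CPM (mesenchymal, of which Vim was 34.0 CPM with DSS), while defining markers such as Ptprc, Cd3e, Adgre1, Cdh5, Kdr, Emcn, Col1a2, Col3a1, Dcn and Lum were not among the genes listed. The part of these markers in the values of the feedback genes was not tested. The lowest count of any listed gene was 1, so a marker counted in only 1 library may also be missing.

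**Figure D1:**
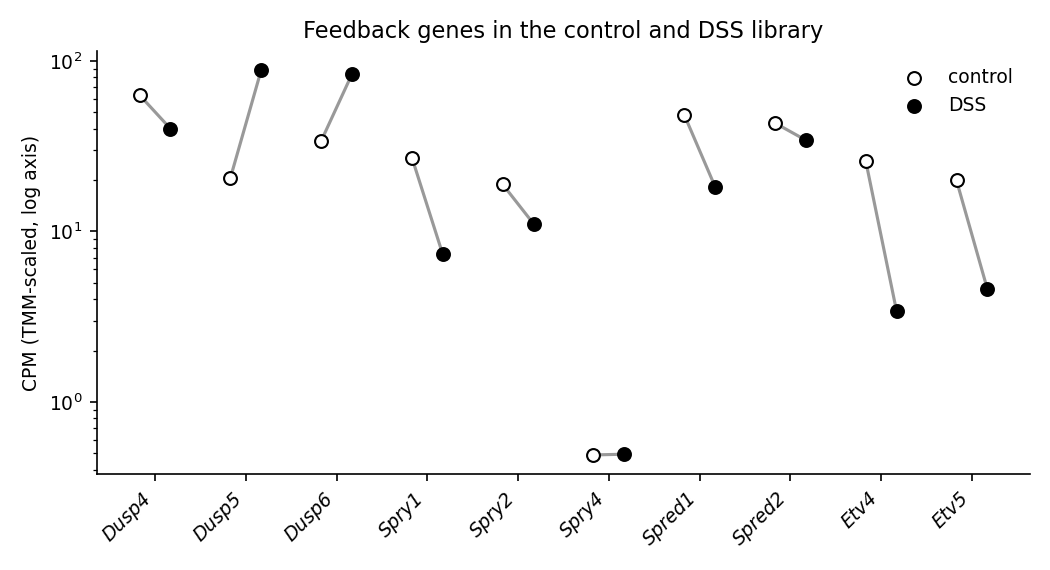
Level of each feedback gene in the control library (open circle) and the DSS library (filled circle), in CPM after TMM scaling, on a log axis. Etv4 lies at 25.9 and 3.40 CPM, Dusp5 at 20.5 and 88.3 CPM, and Spry4 at 0.489 and 0.494 CPM. Each point is 1 library, so there are no error bars.

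Dusp5 encodes a nuclear phosphatase that acts on ERK. It had 1470 counts in the control library and 4830 in the DSS library, or 20.5 and 88.3 CPM. The level was 4.30-fold higher with DSS, a log2 ratio of 2.10 (95% counting interval 2.02 to 2.19). This was the highest ratio of the set, and 92.8% of all genes had a lower one.

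Dusp6, whose product MKP-3 holds ERK inactive in the cytoplasm, had 2423 counts in the control library and 4570 in the DSS library. Its level was 33.9 CPM in the control and 83.6 CPM with DSS, for a log2 ratio of 1.30 (interval 1.23 to 1.38). Both of these ERK phosphatase genes were therefore past the 2-fold line in the same direction.

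Dusp4 was lower with DSS. It encodes a further nuclear phosphatase, MKP-2, which also acts on the stress kinases. Dusp4 had 4504 counts in the control library and 2187 in the DSS library, or 62.9 and 40.0 CPM, and its log2 ratio was -0.65 (interval -0.73 to -0.58). The ratio of Dusp5 exceeded that of Dusp4 by 2.76 on the log2 scale (interval 2.65 to 2.87), and that of Dusp6 exceeded it by 1.96, from 1.86 to 2.06. Such a difference between a pair of genes holds under any scaling of the libraries, since the scaling factors cancel. Added together, the 3 phosphatase genes were higher with DSS, at 212 CPM against 117 CPM, a log2 ratio of 0.85 (interval 0.81 to 0.89).

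Sprouty proteins inhibit signaling from receptor tyrosine kinases. Spry1 had 1938 counts in the control library and 401 in the DSS library, which was 27.1 and 7.33 CPM. Its log2 ratio was -1.88 (interval -2.04 to -1.73), and 7.46% of all genes had a lower ratio.

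Spry2 had a smaller difference than Spry1. It had 1350 and 606 counts, or 18.9 CPM in the control and 11.1 CPM with DSS, and a log2 ratio of -0.77 (interval -0.91 to -0.63). The ratio of Spry2 exceeded that of Spry1 by 1.12, from 0.91 to 1.33. Spry4 was barely detected, with 35 counts in the control library and 27 in the DSS library, or 0.489 and 0.494 CPM. Its log2 ratio was 0.01 and the interval ran from -0.77 to 0.78, so a difference within these bounds was not detectable at this depth. Summed, the Sprouty genes were at 46.4 CPM in the control library and 18.9 CPM with DSS, a ratio of -1.30 on the log2 scale (interval -1.40 to -1.19).

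SPRED proteins are relatives of Sprouty that bring the RAS inhibitor neurofibromin to the membrane. Spred1 had 3458 counts in the control library and 1000 in the DSS library, or 48.3 and 18.3 CPM, for a log2 ratio of -1.40 (interval -1.50 to -1.30). Spred2 had 3090 and 1873 counts, or 43.2 and 34.3 CPM, and a log2 ratio of -0.33 (interval -0.42 to -0.25). The ratio of Spred2 exceeded that of Spred1 by 1.07 on the log2 scale, from 0.94 to 1.20. Their sum was 91.5 CPM in the control library and 52.5 CPM with DSS, or -0.80 on the log2 scale (interval -0.86 to -0.74).

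The ETS factors had the lowest ratios of the set. Etv4 had 1853 counts in the control library and 186 in the DSS library, which was 25.9 and 3.40 CPM. This was 7.61-fold lower with DSS, a log2 ratio of -2.93 (interval -3.15 to -2.71), and 2.59% of all genes had a lower ratio. Etv5 had 1424 counts in the control library and 251 in the DSS library, or 19.9 and 4.59 CPM, and was 4.33-fold lower, with a log2 ratio of -2.12 and an interval from -2.32 to -1.92. Together, both genes were at 45.8 CPM in the control library and 7.99 CPM with DSS, and their summed log2 ratio of -2.52 (interval -2.67 to -2.37) was the furthest from 0 of the 4 families.

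**Figure D2:**
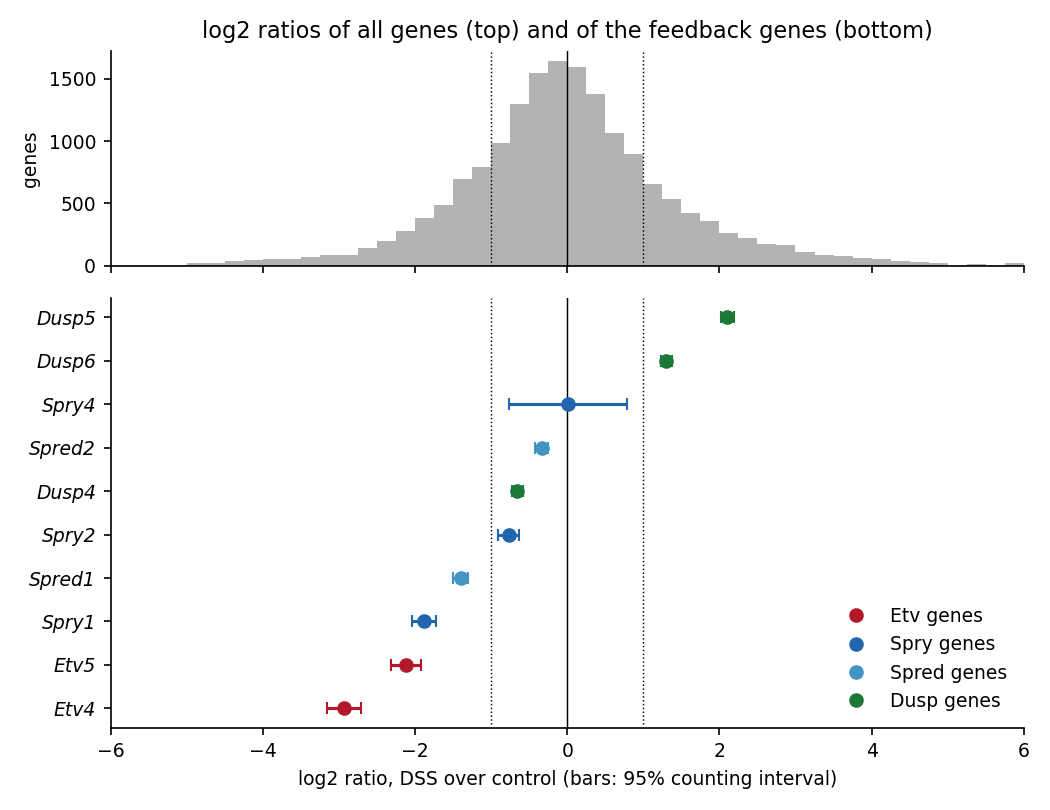
Top, number of genes by log2 ratio of DSS over control among 17235 genes, in bins of 0.25 with genes beyond 6 or -6 placed in the end bins. Bottom, log2 ratio of each feedback gene with its 95% counting interval, with dotted lines at 1 and -1; Dusp5 and Dusp6 lie right of the dotted lines, and Spred1, Spry1, Etv5 and Etv4 lie left of them.

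Of the 8 pairs of genes within the 4 families, all 8 had a counting interval of the difference that excluded 0. The share among pairs of all genes was not computed, so this count does not set these families apart. The narrowest margin was that of Spry4 over Spry2, where the difference was 0.78 and the interval ran from 0.04 to 1.52. Dusp5 exceeded Dusp6 by 0.80, from 0.69 to 0.91, and Etv5 exceeded Etv4 by 0.81, from 0.52 to 1.10.

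To compare levels between genes, CPM were divided by the length of all annotated exons in kilobases (kb). In the control library, Dusp4 was the most abundant feedback gene, at 23.0 CPM per kb, ahead of Dusp6 at 10.8. Spred2, Spry1 and Spry2 followed at 9.35, 9.32 and 9.04 CPM per kb, and neighbors in this order did not differ beyond counting error. Nor did Etv4 and Dusp5, at 8.34 and 8.31 CPM per kb. Spred1 was at 7.12, Etv5 at 4.85 and Spry4 at 0.103 CPM per kb.

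In the DSS library, Dusp5 took the lead at 35.7 CPM per kb, followed by Dusp6 at 26.7 and Dusp4 at 14.6. Dusp5 thus ranked 7 of 10 in the control library and 1 of 10 with DSS. Spred2 was at 7.42, Spry2 at 5.31, Spred1 at 2.70 and Spry1 at 2.52 CPM per kb, where Spred1 and Spry1 did not differ beyond counting error. Etv5 and Etv4, at 1.12 and 1.10 CPM per kb, did not differ beyond counting error either, and Spry4 was last again at 0.104. Among all genes with an annotated length, 67.1% had a lower level than Etv4 in the control library, and 30.2% did so in the DSS library. For Dusp5, the shares were 67.0% and 91.0%.

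The order of genes with close levels rested on the length used. With the longest annotated transcript in place of all exons, 4 of the 5 neighboring pairs that had not differed beyond counting error did so, the exception being Spred2 and Spry1 in the control library. In the DSS library, Etv4 was then ahead of Etv5, at 1.42 against 1.15 CPM per kb. In the control library, Etv4 was ahead of Spry2, at 10.8 against 9.04 CPM per kb, while Dusp5 and Spred1, at 8.31 and 8.03 CPM per kb, no longer differed beyond counting error. Under both lengths, Dusp4 led the set in the control library and Dusp5 with DSS.

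Per kb of all exons, the most abundant gene was a different one in the DSS library in 3 of the 4 families. Of these leads, that of Spry1 over Spry2 in the control library and that of Etv5 over Etv4 with DSS were within counting error. With the longest transcript, the number was 2 of 4, since Etv4 then led its pair in both libraries. Dusp4 made up 54.6% of the summed CPM per kb of the phosphatase genes in the control library and 19.0% in the DSS library, while Dusp5 went from 19.7% to 46.4% and Dusp6 from 25.7% to 34.7%. Spry1 and Spry2 were near parity in the control library, at 50.5% and 49.0%, and Spry2 made up 66.9% with DSS. Spred2 was ahead of Spred1 in both libraries, with 56.8% in the control and 73.3% with DSS. Etv4 made up 63.2% of its pair in the control library and 49.5% with DSS. As shares of counts, before any division by length, Dusp4 held 53.6% of the control counts of its family, with an exact Clopper-Pearson 95% interval from 52.6% to 54.7%, and 18.9% of the DSS counts, from 18.2% to 19.6%.

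**Figure D3:**
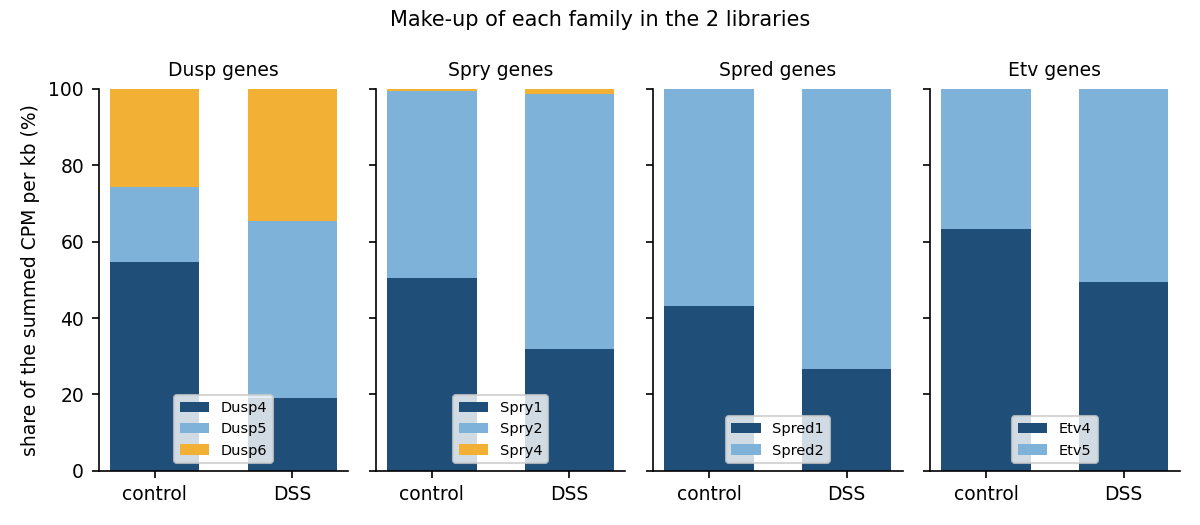
Share of each gene in the summed CPM per kb (all exons) of its family, in percent, for the control and the DSS library. Dusp4 holds 54.6% and 19.0% and Dusp5 holds 19.7% and 46.4%, and Spry2, Spred2 and Etv5 each take a larger share with DSS.

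The closest relatives of the feedback genes did not always share their direction. The 10 genes of MAP kinase phosphatases compared here include the feedback genes Dusp4, Dusp5 and Dusp6. Of the 10, 5 were at a log2 ratio of 1 or higher, Dusp5 and Dusp6 among them, and 1 was at -1 or lower. Of all genes, 19.3% and 20.2% were. Dusp1, which encodes MKP-1 and acts mainly on the stress kinases p38 and JNK, had 2039 counts in the control library and 14984 with DSS, or 28.5 and 274 CPM, a log2 ratio of 3.27 (interval 3.20 to 3.33). Dusp2 was at 3.17 and Dusp10 at 2.18, where Dusp2 had only 30 control counts. These belong to a list of 5 further phosphatases, of which 3 were at 1 or higher and whose median was 2.18.

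The cytoplasmic ERK phosphatases, MKP-3 and its relatives MKP-X (Dusp7) and MKP-4 (Dusp9), differed in direction. Dusp7 had 578 counts in the control library and 83 in the DSS library, and its log2 ratio was -2.41 (interval -2.76 to -2.08). Dusp9, with 292 and 131 counts, was at -0.77. The ratio of Dusp6 exceeded that of Dusp7 by 3.72, from 3.38 to 4.05, and that of Dusp9 by 2.07, from 1.77 to 2.38. In the control library, Dusp6 already had more counts than either gene, before any division by length.

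Etv1 completes the PEA3 group and was higher with DSS, opposite to Etv4 and Etv5. It had 240 counts in the control library and 917 in the DSS library, or 3.35 and 16.8 CPM, with a log2 ratio of 2.32 and an interval from 2.12 to 2.53. The ratio of Etv1 exceeded that of Etv4 by 5.25, from 4.95 to 5.55, and that of Etv5 by 4.44, from 4.16 to 4.72. With DSS, Etv1 had more counts than Etv4 and Etv5 together, whereas in the control library each of them had more counts than Etv1. These counts were not divided by length.

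Spred3 likewise differed from Spred1 and Spred2. It had 215 counts in the control library and 501 with DSS, a log2 ratio of 1.61 (interval 1.38 to 1.85), and exceeded the ratio of Spred1 by 3.01, from 2.76 to 3.26. Its level with DSS was 9.16 CPM. Spred2 and Spred1 were at 34.3 and 18.3 CPM, and these values were not divided by length. Spry3 was not among the genes listed.

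**Figure D4:**
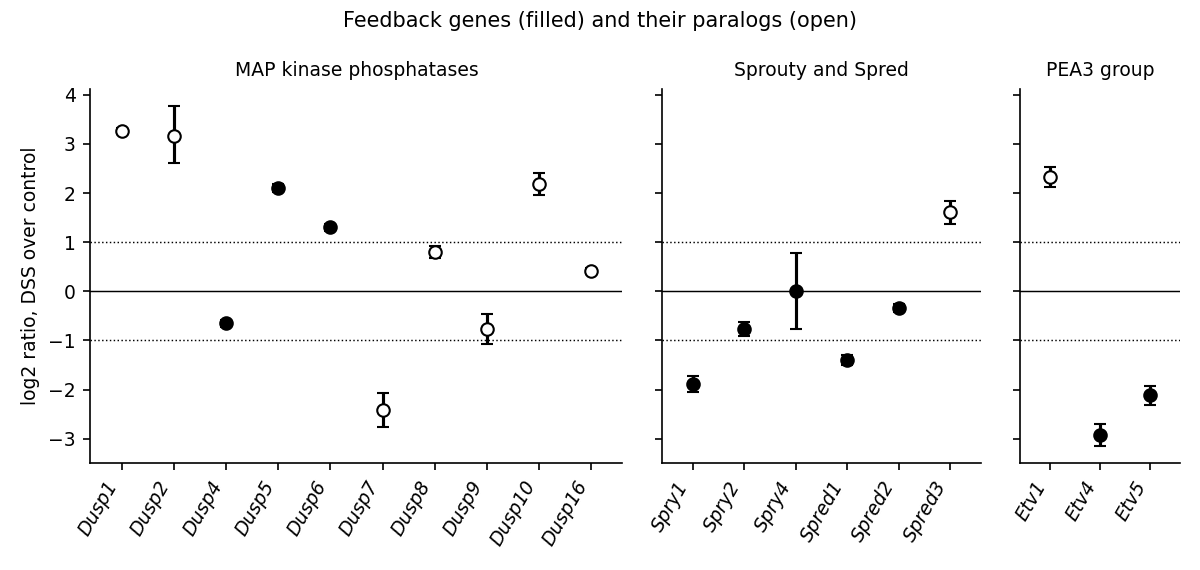
Log2 ratio of DSS over control with its 95% counting interval for the feedback genes (filled) and their paralogs (open), with dotted lines at 1 and -1. Etv1 at 2.32 stands opposite to Etv4 and Etv5, Spred3 at 1.61 opposite to Spred1, and Dusp7 at -2.41 opposite to Dusp6.

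Most genes of the pathway upstream lay between the lines, as did 10419 of all 17235 genes. Beside each list below stand the shares of all genes, 19.3% at 1 or higher and 20.2% at -1 or lower. Of 19 genes for RAS, RAF, MEK, ERK and their partners with enough counts, 4 were at 1 or higher, none of these 19 was at -1 or lower, and the median log2 ratio was 0.26. The highest were Ksr1, a scaffold for RAF and MEK, at 1.76, Rras at 1.16 and Map2k2, the gene of the kinase MEK2, at 1.11. Mapk3, which encodes an ERK kinase, lay between the lines at 0.49, with 241 CPM in the control library and 337 CPM with DSS. All 11 adaptors and exchange factors lay between the lines, with a median of -0.07. Rasgrf2 at 0.84, Sos2 at 0.55 and Shc1 at -0.54 were the furthest from 0.

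Among 11 receptor genes, 4 were at 1 or higher and 1 was at -1 or lower, with a median of 0.76. Egfr, the receptor for the EGF of the medium, had 1984 counts in the control library and 2018 with DSS, for a log2 ratio of 0.41. Ret was at 2.89, Fgfr3 at 1.41 and Fgfr4, a receptor for the gut hormone FGF15, at -2.27. Of 7 ligands of the EGF family, 4 were at 1 or higher and none of these 7 at -1 or lower. Ereg, which encodes epiregulin, went from 49 to 586 counts, a log2 ratio of 3.97, Epgn from 6 to 72 counts, and Hbegf was at 1.05.

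The other negative regulators of the pathway also lay on both sides of 0. Of 19 genes, 3 were at 1 or higher and 4 at -1 or lower, with a median of 0.07. Rasa3, which speeds the inactivation of RAS-family proteins, was at -2.87. Lrig1, an inhibitor of ERBB receptors that also marks stem cells, was at -1.97. Errfi1, the gene of the feedback inhibitor MIG6 that binds the EGF receptor itself, was among the higher genes. It had 6281 counts in the control library and 12163 with DSS, and its log2 ratio was 1.34.

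Among 16 immediate early and delayed targets of ERK, 6 were at 1 or higher and 3 at -1 or lower, and the median log2 ratio was 0.59. Ccnd1, which encodes the cell cycle driver cyclin D1, was at -2.94, next to the -2.93 of Etv4, and Myc was at -1.97. Phlda1 was at -0.54. Of the immediate early genes, Egr1 was at 0.60, from 300.2 to 455 CPM, and Fosl1 was at 2.19 on 29 and 101 counts. Of 16 other ETS factors, 2 were at 1 or higher and 3 at -1 or lower, with a median of 0.05. Spdef, a goblet cell factor, was at 2.43 and Ehf at -2.48.

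**Figure D5:**
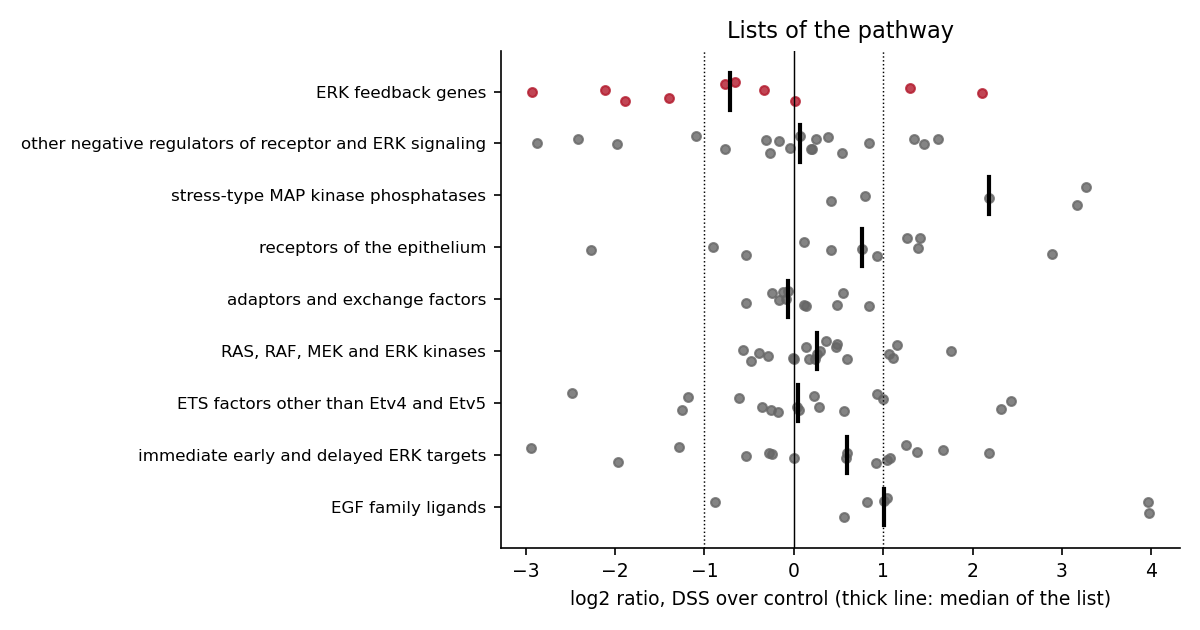
Log2 ratio of DSS over control for each gene of the feedback set (red) and of 8 lists of the pathway (gray), with the median of each list as a thick line and dotted lines at 1 and -1. The feedback genes have the lowest median, -0.71, and their members lie on both sides of 0.

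These counts measure mRNA and not the phosphorylation of ERK, so the activity of the pathway is not given by them. Of the feedback genes, Dusp5 and Spry1 have exons that overlap an annotated gene on the opposite strand. The libraries were made with a stranded kit, but whether the counting used the strand is not stated, so reads of these overlaps cannot be assigned.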

How the data were processed

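Organoids of 1 untreated and 1 DSS-treated culture were profiled by mRNA-seq. Raw read counts per gene were deposited by the authors, and the notes on processing name HISAT2 and StringTie. Genome build and versions are not given in the sources used here. The files labeled as FPKM hold the same counts for all 19294 genes. No gene is listed at 0 in either library. Counts were scaled with TMM factors (edgeR 4.0.16, R 4.3.3), which were 1.09 for the control and 0.915 for the DSS library. Log2 ratios carry exact Clopper-Pearson 95% intervals, and differences between genes carry Woolf intervals of the log odds ratio. No test was possible with 1 library per condition. A gene entered the counts of genes once it reached 10 counts in the control or the DSS library. Exon lengths came from GENCODE vM21 (GRCm38), matched by symbol for 17086 genes and all 10 feedback genes, and promoters from RefSeq (GRCm38.p6). Python 3.11.15, scipy 1.17.1 and matplotlib 3.10.9 were used. The computation was tested on simulated counts, which held counting noise only and far fewer changed genes than these data. Scaling with this many differing genes was therefore not tested.

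The members and gene lists were chosen with earlier results of these data known. Named are all feedback genes, of each pathway list the 3 genes furthest from a log2 ratio of 0 that reached 50 counts in either library, and Egfr, Mapk3, Dusp1, Phlda1, Egr1, Lgr5, Mki67 and Vil1. Some genes that the rule or the lists hold are not reported here. Spred3, Dusp9 and Errfi1, the pairs with paralogs and the motifs were chosen after the values were seen. Also tried were size factors of DESeq2 1.42.0, scaling by total counts, upper quartiles, centering on the median of all genes, a prior count of 2, thinning of the control library, other count minimums, a log2 line of 2 and the longest transcript as length.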

Additional observations from a re-analysis of the deposited data

How the results depend on the processing

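When libraries were scaled by total counts alone, every log2 ratio was lower by the same shift of -0.26, the median of the feedback genes was -0.97, and Spry2 at -1.02 became the fifth gene at -1 or lower. All other scalings, the prior count and thinning left 4 genes at -1 or lower and 2 at 1 or higher. Under total counts, 37.1% of genes past a line were the higher ones, against 48.9% with TMM. With the line at a log2 ratio of 2, the feedback genes past it were 2 in the lower direction (Etv4 and Etv5) and 1 in the higher (Dusp5), beside 1127 and 1356 of all genes. No feedback gene past the 2-fold line changed direction under any scaling, prior count or thinning tried. Spry4, at 0.01, ran from -0.24 to 0.10 and has no direction here. The differences within families moved by less than their counting intervals. With the longest transcript as length, 7 of 10 genes kept their place in the control library and 8 in the DSS library. The families with a different leading gene then numbered 2 in place of 3. Per kb of all exons, the leads of Spry1 in the control library and of Etv5 with DSS were within counting error. No paired analysis was possible because each condition has 1 library. No library could be left out for the same reason, and depth limits the statements on Spry4.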
